A study of Mus musculus with 14 samples.

Results

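The genes described here encode 8 members of the BCL2 family and cytochrome c: the survival genes Bcl2, Bcl2l1 (BCL-XL) and Mcl1, the BH3-only genes Bcl2l11 (BIM), Bid, Bad and Bmf, the effector Bak1, and Cycs, which encodes somatic cytochrome c. They were chosen by gene symbol, and all 9 were found among the 55487 genes of the deposited count table. No caspase is among them; caspases belong to a separate list of 49 other apoptosis genes described at the end. RNA-seq was made from ureteric bud cells of mouse kidneys at embryonic stage E13.5. The cells were sorted for GFP, which is expressed along with Cre recombinase from a Hoxb7 transgene active in the ureteric bud and its descendants. The 14 libraries form 4 groups: 5 labelled Cep120 KO (numbered 2, 4, 5, 6 and 7), 3 controls of the Cep120 line, 3 labelled Pkd1 KO and 3 Pkd1-line controls. Cep120 encodes a centriole protein needed for centrosome formation, and Pkd1 encodes polycystin-1, the protein of the most common form of inherited polycystic kidney disease. The genotype field calls both sets of controls WT while their titles mark them as het, so the controls may carry 1 deleted allele. The labels state neither the deleted exons nor whether libraries of a group came from separate embryos or litters, and p-values then measure only the spread between these libraries. The deposited design compares cells with and without centrosomes at the onset of a kidney defect.

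BCL2 family proteins decide whether the outer membrane of the mitochondrion stays intact. Survival members such as BCL2, BCL-XL and MCL1 hold the effectors BAX and BAK in check, and BH3-only proteins such as BIM, BID, BAD and BMF bind the survival members or act on the effectors directly. When the effectors open the membrane, cytochrome c leaves the mitochondrion, joins APAF1 and starts the caspase cascade; in a living cell the same protein carries electrons in the respiratory chain. In the developing kidney, BCL2 is known for its role in survival of the nephron-forming mesenchyme, and mice without it have small, cystic kidneys.

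Total counts ran from 11347628 to 27967540 reads per library. Libraries 6 and 7 of the Cep120 KO group stood apart from the other 12. Their 12 ureteric bud markers summed to 1112 and 1689 CPM (read counts scaled to the library's total with edgeR's TMM factors), against 2901 to 3545 elsewhere. Of these markers, Ret, Wnt11, Gata3, Calb1, Cdh1, Epcam and Cdh16 were lower there than in every other library. Pax2 was higher there, at 61.9 and 54.6 CPM against 11.1 to 27.05. Hoxb7 and Lhx1 were within the range of the others, and Wnt9b and Krt8 were below it in library 6 only. Calb1 was the largest part of the sum in each library. In libraries 4 and 5, Calb1 was lower, and Cdh1 and Cdh16 were higher, than in the controls of their line. The 6 nephron progenitor markers summed to 760.6 and 577 CPM in libraries 6 and 7, against 26.4 to 63.6. Of the 6, Six2, Eya1, Osr1, Meox1 and Crym were higher there than in every other library, and Cited1, at 50.8 and 33.2 CPM, was within the range of the others (20.5 to 55.5 CPM). Six2, the defining gene of nephron progenitors, was at 127 and 86.1 CPM in libraries 6 and 7 and at most at 1.53 CPM in any other library; it was at 0 in 1 library. Stromal markers also summed higher there, to 101 and 136 CPM against 1.45 to 51.9. Blood cell markers were lower under the Cep120 KO label than in the controls of that line. The 7 macrophage and leukocyte markers summed to 4.39 to 14.8 CPM against 21.0 to 34.1 in those controls, and the 3 platelet markers to 1.40 to 3.92 CPM against 5.59 to 335, both without overlap. The 5 erythroid markers summed to 4.13 to 752.8 CPM against 317 to 4405, with overlap. In the Pkd1 line the macrophage and leukocyte sums were 4.80 to 16.0 CPM in controls and 8.78 to 13.05 CPM under the KO label. Platelet sums there were 1.97 to 13.0 CPM in controls and 4.16 to 51.7 CPM under the KO label. For macrophage and leukocyte markers, the Cep120-line controls were thus above every other group. The part of these markers in the Cep120 comparison was not tested. Libraries 4 and 5 were more alike than any other pair of the same group: the median chi-square of their gene counts was 3.27 times what sampling alone gives, while the other 18 pairs lay between 6.99 and 136 times. They differed by more than sampling noise, which does not show whether they came from separate embryos, and were counted as 2 samples. The targeted genes checked the labels only in part, because counts over the whole gene include exons outside a deletion. Pkd1 was at 2.499 ± 0.160 CPM (SD, n = 3) in libraries labelled Pkd1 KO and at 3.93 ± 0.63 CPM (SD, n = 3) in their controls. Counts of the Cep120 gene were not reduced under its own KO label, at 15.6 ± 5.34 CPM (SD, n = 5) against 8.83 ± 2.18 CPM (SD, n = 3), so every direction given below for that group rests on the label.

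The 9 genes lie at 9 places in the GRCm38 genome (GENCODE M21). Bcl2 (ENSMUSG00000057329) spans chr1:106538178-106714274 on the minus strand, Bcl2l1 (ENSMUSG00000007659) chr2:152780668-152831728 minus and Mcl1 (ENSMUSG00000038612) chr3:95658788-95663176 plus. Bcl2l11 (ENSMUSG00000027381) spans chr2:128126038-128162547 plus, Bid (ENSMUSG00000004446) chr6:120891930-120916853 minus, Bad (ENSMUSG00000024959) chr19:6941861-6951899 plus and Bmf (ENSMUSG00000040093) chr2:118528757-118549687 minus. Bak1 (ENSMUSG00000057789) spans chr17:27019810-27029009 minus and Cycs (ENSMUSG00000063694) chr6:50562563-50566538 minus. Genes on the opposite strand overlap Bcl2 (D630008O14Rik), Bid (Bcl2l13), Bad (Gpr137) and Bak1 (Ggnbp1). The library kit does not mark strand, so reads of overlapping stretches cannot be told apart. At the Bcl2 locus, D630008O14Rik was listed at 3.26 and 1.24 CPM in libraries 6 and 7 and at no more than 0.587 CPM elsewhere.

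Promoter windows of 250 bases before the start site were taken from RefSeq (GRCm38.p6), which held 15 windows for the 9 genes and 32851 in all. They are shown for Bcl2l11, Cycs and Bcl2, the genes with the largest fold changes below, 5′ to 3′ on the gene's strand. Capitals mark matches, on either strand, to letters searched for by script: GTAAACA (a FOXO motif), TGACGTCA (a CRE, bound by CREB) and GGGCGG (a GC box, bound by SP1).
Bcl2l11, chr2:128125788-128126037, plus strand: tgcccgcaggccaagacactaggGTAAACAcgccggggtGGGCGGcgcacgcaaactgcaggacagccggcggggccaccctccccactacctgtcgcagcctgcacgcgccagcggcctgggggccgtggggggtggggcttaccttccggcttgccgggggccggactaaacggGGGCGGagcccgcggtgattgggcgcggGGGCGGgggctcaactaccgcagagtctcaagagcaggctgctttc
Cycs, chr6:50566570-50566819, minus strand: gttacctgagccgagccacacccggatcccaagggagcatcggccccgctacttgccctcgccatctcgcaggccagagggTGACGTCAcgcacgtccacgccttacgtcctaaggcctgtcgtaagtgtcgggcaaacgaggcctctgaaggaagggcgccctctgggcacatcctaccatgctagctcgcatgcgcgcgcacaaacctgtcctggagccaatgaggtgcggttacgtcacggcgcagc
Bcl2, chr1:106714291-106714540, minus strand: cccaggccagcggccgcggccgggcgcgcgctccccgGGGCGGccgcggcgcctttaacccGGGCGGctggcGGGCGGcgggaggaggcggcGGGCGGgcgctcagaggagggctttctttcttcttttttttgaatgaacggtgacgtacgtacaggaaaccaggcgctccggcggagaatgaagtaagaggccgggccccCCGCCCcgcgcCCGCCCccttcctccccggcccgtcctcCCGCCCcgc

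The Bcl2l11 window shown was the only 1 of the 15 with the FOXO letters, which 3.17% of all windows hold. Bcl2l11 has a further window, not shown, at chr2:128127325-128127574, with 2 GC boxes and without the FOXO letters. The Cycs window was the only 1 with the CRE letters, found in 1.55% of all windows. The Bcl2 window held 7 GC boxes; 6 of the 15 windows, and 32.7% of all, had at least 1. The letters TGANTCA (AP-1, 6.75% of all windows) and the NRF1 motif (3.74%) were in 0 of the 15. These motifs do not overlap each other in the windows shown, and a match is a description of letters, not of a bound site.

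The deposited TPM values, which are scaled by transcript length and so allow genes to be compared, put the 9 genes in a wide order. In the Cep120-line controls, Cycs led with 183 ± 7.35 TPM (SD, n = 3). It was followed by Bcl2l1 at 83.5 ± 14.7 TPM, Bad at 62.2 ± 4.31 TPM, Bid at 19.9 ± 2.07 TPM and Mcl1 at 7.46 ± 1.41 TPM, and the ranges of these 5 genes did not overlap. Bak1 at 5.07 ± 0.91 TPM, Bmf at 2.71 ± 1.36 TPM, Bcl2 at 2.61 ± 0.45 TPM and Bcl2l11 at 2.53 ± 0.49 TPM each overlapped the next gene. The first 6 ranks were the same in the Pkd1-line controls and in the libraries labelled Pkd1 KO, and Bmf was last in both.

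In the libraries labelled Cep120 KO the order changed in its lower part. Bcl2 stood above Mcl1 with 18.4 ± 20.3 TPM (SD, n = 5) and Bcl2l11 above Bak1 and Bmf with 11.9 ± 8.46 TPM. These spreads came from libraries 6 and 7. Bcl2 was listed there at 43.2 and 37.8 TPM and at 3.28 to 3.78 TPM in libraries 2, 4 and 5. Bcl2 made up 32.3% and 28.2% of the summed TPM of the 3 survival genes in libraries 6 and 7, against 2.02% to 5.77% in the other 12. Bcl2l1 supplied 86.0% to 92.1% of that sum in the Cep120-line controls and 49.8% in the lowest library labelled Cep120 KO. Among the 4 BH3-only genes, Bcl2l11 made up 2.54% to 3.29% of the summed TPM in the Cep120-line controls and 4.60% to 17.6% in the libraries labelled Cep120 KO. Bad was the largest share of the BH3-only sum in every library. The ratio of the survival sum to the BH3-only sum was 1.02, 1.01 and 1.18 in the Cep120-line controls and 1.49, 1.27, 1.61, 1.07 and 1.13 in libraries 2, 4, 5, 6 and 7. Libraries 6 and 7 fell within the range of these controls and libraries 2, 4 and 5 above it. In the Pkd1 line the ratio was 1.28, 1.22 and 1.09 in controls and 1.05, 0.970 and 1.27 in libraries labelled Pkd1 KO. Over the controls of both lines, only libraries 2 and 5 were above the control range.

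**Figure D1:**
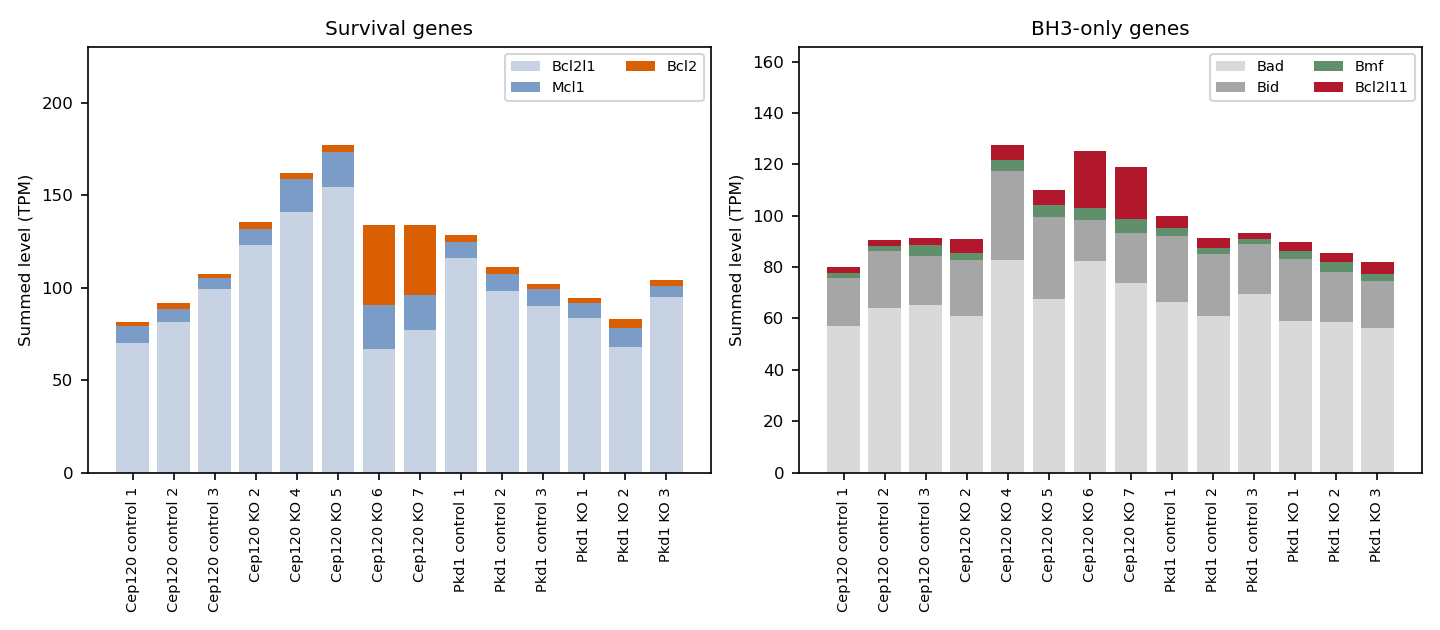
Summed TPM (vertical axis) of the 3 survival genes (left) and the 4 BH3-only genes (right) in each of the 14 libraries, stacked by gene. Bcl2 is a thin band in 12 libraries and 32.3% and 28.2% of the survival sum in Cep120 KO libraries 6 and 7; the Bcl2l11 band is widest in the same libraries.

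Between the libraries labelled Cep120 KO and the controls of their line, Bcl2l11 rose and Cycs fell. Bcl2l11 was 3.20-fold higher and Cycs was at 0.488 of its control level. Thus 2 of the 9 genes passed an adjusted p of 0.05, 1 in each direction, with edgeR's quasi-likelihood test and Benjamini-Hochberg adjustment over all genes. Of the 16876 genes tested, 14.7% passed in this comparison, 8.4% higher and 6.26% lower. All 9 genes passed the filter on low counts. The median log2 fold change of the 9 was -0.18, against 0.12 over all genes tested. The median of the 9 was 0.099 without libraries 6 and 7, 0.094 with limma-voom and 0.078 on the deposited log2 CPM. With DESeq2 it was -0.20 and with a gene length offset -0.16, so its sign depended on the fit. In 3 of the 9 genes the groups did not overlap (Bcl2l11 above, Bad and Cycs below), against 15.2% of all genes tested (6.41% above and 8.75% below). On the deposited log2 CPM, tested with limma, the median over all genes moved from 0.12 to 0.45 and the calls from 1418 higher and 1057 lower to 2638 higher and 556 lower; Bcl2l11 (1.85) and Cycs (-0.75) were called there too. In bulk samples a change in the mix of sorted cells and a change in RNA per cell cannot be told apart.

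**Figure D2:**
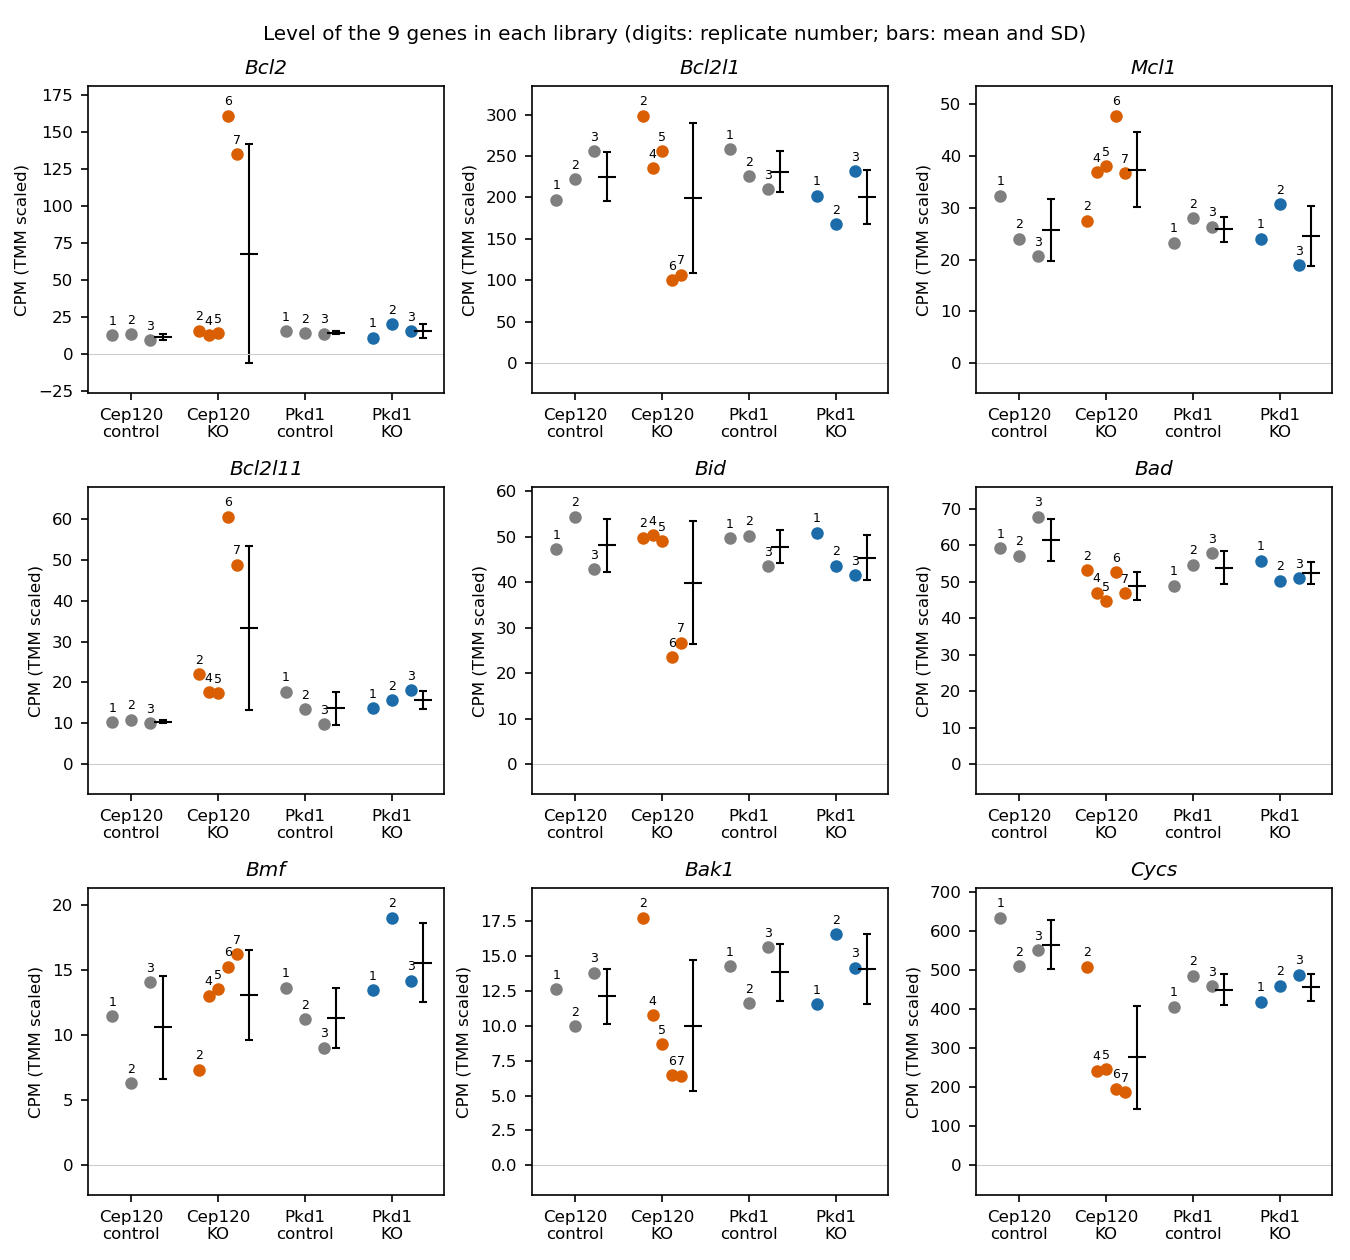
CPM (linear vertical axes, TMM scaled) of each of the 9 genes in each library, by group; digits are replicate numbers and the black bar is the mean with its SD. Bcl2 is at 161 and 135 CPM in Cep120 KO libraries 6 and 7 and at 9.27 to 19.9 CPM in the other 12, while Cycs is between 188 and 246 CPM in libraries 4 to 7 and at 508.7 CPM in library 2.

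Among the survival genes, Bcl2 had the widest spread. It was at 12.4, 13.1 and 9.27 CPM in the Cep120-line controls and at 15.5, 12.5, 13.7, 161 and 135 CPM in libraries 2, 4, 5, 6 and 7. Libraries 6 and 7 were far above every other library, and library 4 lay within the control range. The fitted log2 fold change was 2.54 (SE 0.83), which missed the threshold (edgeR, Benjamini-Hochberg adjusted p = 0.0533). Without libraries 6 and 7 it was 0.26 (edgeR, adjusted p = 0.488). Without libraries 4 and 5 it was 3.17 (edgeR, adjusted p = 0.0335), when 2065 of 16630 genes passed. It passed without library 2 (2.79, edgeR, adjusted p = 0.0156), when 34.0% of genes passed. With DESeq2 it passed too (2.54, adjusted p = 0.0038), when 4199 of 16876 genes passed. The nephron progenitor markers stood high in libraries 6 and 7, and their part in the Bcl2 value was not tested.

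Bcl2l1, which encodes the most abundant survival transcript here, was at 197, 222 and 256 CPM in the controls and at 299, 235, 256, 100.5 and 107 CPM in libraries 2, 4, 5, 6 and 7. Only libraries 6 and 7 were below the control range, and only library 2 was above it. The log2 fold change was -0.18 (SE 0.31; edgeR, Benjamini-Hochberg adjusted p = 0.729). It was 0.22 without libraries 6 and 7, so its direction rested on those libraries. Mcl1, whose protein is short-lived, was at 32.3, 24.0 and 20.6 CPM in the controls and at 27.5, 36.9, 38.0, 47.8 and 36.7 CPM in the libraries labelled Cep120 KO. Here 4 of the 5 libraries were above all controls, and library 2 was within their range. The log2 fold change was 0.54 (SE 0.22; edgeR, Benjamini-Hochberg adjusted p = 0.0997).

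Bcl2l11, whose product BIM binds all survival members, was the only 1 of the 4 BH3-only genes among the 9 that was called higher. Bbc3, a BH3-only gene of the wider pathway list, was called higher too. Bcl2l11 was at 10.3, 10.9 and 10.1 CPM in the controls and at 21.96, 17.6, 17.4, 60.5 and 48.8 CPM in libraries 2, 4, 5, 6 and 7. Every library labelled Cep120 KO was above every control of its line, and libraries 6 and 7 were the highest. The log2 fold change was 1.68 (SE 0.41; edgeR, Benjamini-Hochberg adjusted p = 0.0305). Without libraries 6 and 7 it was 0.86 (SE 0.22) and still passed (adjusted p = 0.0438), when 6.41% of 16028 genes passed. Without library 6 alone (adjusted p = 0.053) or library 7 alone (adjusted p = 0.056), without any 1 of the 3 controls (adjusted p = 0.0930 to 0.118), in a fit of the Cep120 line alone (adjusted p = 0.133), with library 2 as the only library labelled Cep120 KO (1.10, adjusted p = 0.211, when 0.0278% of genes passed) or with a gene length offset (1.29, adjusted p = 0.0838, when 0.083% passed) it no longer passed. The fold was positive in all of these fits. In the Pkd1 line the gene was at 17.7, 13.45 and 9.79 CPM in controls, a range that reaches the level of libraries 4 and 5.

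Bad, whose product binds BCL2 and BCL-XL, was at 59.3, 57.2 and 67.9 CPM in the controls and at 53.3, 47.0, 44.7, 52.7 and 46.9 CPM in the libraries labelled Cep120 KO. The groups did not overlap, but the log2 fold change of -0.33 (SE 0.13) missed the threshold (edgeR, Benjamini-Hochberg adjusted p = 0.0969). On the deposited TPM scale the order of the means was the opposite, 73.5 ± 9.43 TPM (SD, n = 5) against 62.2 ± 4.31 TPM (SD, n = 3). With a gene length offset the fold was -0.01. The direction for Bad thus depended on the scale used.

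Bid, whose protein is activated when caspase-8 cuts it, was between 42.8 and 54.4 CPM in the controls, between 49.0 and 50.3 CPM in libraries 2, 4 and 5, and at 23.6 and 26.7 CPM in libraries 6 and 7. The low values were those of libraries 6 and 7. The log2 fold change was -0.27 (SE 0.24; edgeR, Benjamini-Hochberg adjusted p = 0.456) and was 0.04 without them. Bmf, which encodes a BH3-only protein held at the actin and myosin cytoskeleton, was between 6.28 and 14.1 CPM in the controls and between 7.34 and 16.2 CPM in the libraries labelled Cep120 KO. The groups overlapped, and the log2 fold change was 0.31 (SE 0.30; edgeR, Benjamini-Hochberg adjusted p = 0.501).

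Bak1, 1 of the effectors that open the outer membrane, was at 12.6, 9.98 and 13.8 CPM in the controls and at 17.8, 10.8, 8.70, 6.43 and 6.43 CPM in libraries 2, 4, 5, 6 and 7. Library 2 was above every control and libraries 5, 6 and 7 were below every control. The log2 fold change of -0.28 (SE 0.31) did not pass (edgeR, Benjamini-Hochberg adjusted p = 0.554). On the TPM scale the means of Bcl2l1, Bid and Bak1, like that of Bad, stood higher for the Cep120 KO label than for the controls, so no direction is given for any of these 4 genes.

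Cycs was the only member called lower. It was at 634, 510.5 and 551 CPM in the controls and at 508.7, 242, 246, 196 and 188 CPM in libraries 2, 4, 5, 6 and 7. Libraries 4 to 7 were all far below the controls, whereas library 2 was next to the lowest control. The log2 fold change was -1.03 (SE 0.27; edgeR, Benjamini-Hochberg adjusted p = 0.0315). With library 2 as the only library labelled Cep120 KO it was -0.13 (adjusted p = 0.742), and without library 2 it was -1.38 (adjusted p = 2.5e-05), when 34.0% of genes passed. Without libraries 6 and 7 it was -0.77 (adjusted p = 0.0640), and with libraries 4 and 5 summed as 1 sample it was -0.99 (adjusted p = 0.0512). The call was also lost on leaving out any single library of the Cep120 line other than library 2 (adjusted p up to 0.123), in a fit of that line alone (adjusted p = 0.133) and with a gene length offset (-1.24, adjusted p = 0.0672). On the TPM scale Cycs was at 192, 180.0 and 178 TPM in the controls and at 178, 133, 144, 112 and 116 TPM in libraries 2, 4, 5, 6 and 7, the same order of groups with a smaller gap. Reads of the related genes Cyct, Cycs-ps2 and Cycs-ps3 were at most 0.406 CPM in any library. The TMM factors of libraries 4 to 7 were 1.15 to 1.32, against 0.862 to 0.966 in the other 10 libraries; the part of this difference in the Cycs value was not tested.

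**Figure D3:**
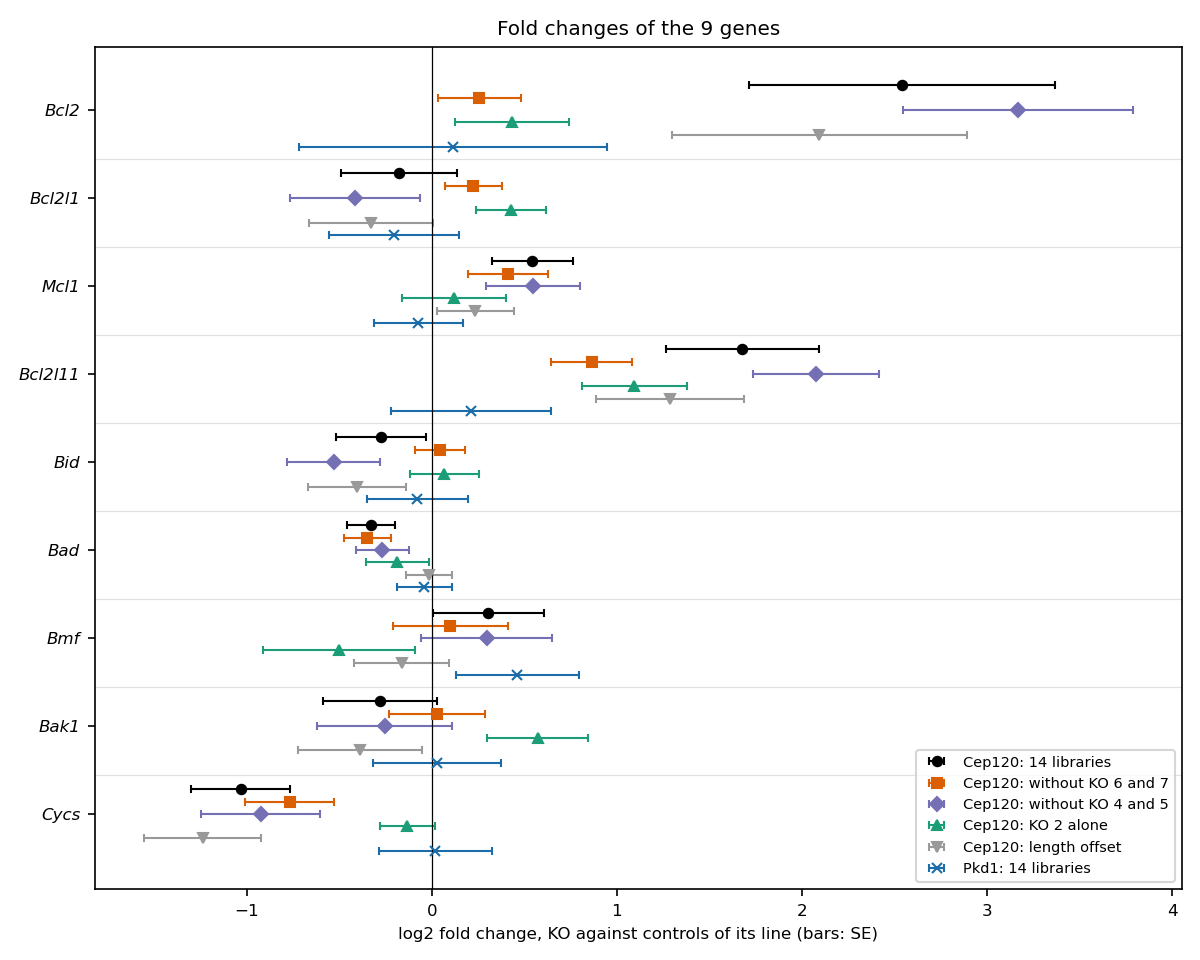
Log2 fold change (horizontal axis) with its SE for each of the 9 genes: the Cep120 comparison with all libraries and under 4 alternatives, and the Pkd1 comparison. Bcl2l11 is to the right of 0 under all 5 settings, Bcl2 drops from 2.54 to 0.26 without libraries 6 and 7, and Cycs moves from -1.03 to -0.13 with library 2 alone.

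In the Pkd1 line 0 of the 9 genes passed (edgeR), as did 0.0% of all genes tested. DESeq2 and limma also called 0 of the 9. At an unadjusted p under 0.05 there were 0 of the 9 and 259 of all genes; the smallest unadjusted p of the 9 was 0.185, for Bmf. The groups overlapped for all 9 genes, whereas 11.1% of all genes did not overlap. Bmf, with 13.6, 11.2 and 9.03 CPM in controls and 13.4, 19.0 and 14.2 CPM in libraries labelled Pkd1 KO, had a log2 fold change of 0.46 (SE 0.33). Bcl2l11 was at 13.7, 15.6 and 18.1 CPM in the libraries labelled Pkd1 KO, with a log2 fold change of 0.21 (SE 0.43). Cycs was at 406, 485 and 459 CPM in the controls and at 419, 460 and 488 CPM in the libraries labelled Pkd1 KO, a log2 fold change of 0.02 (SE 0.31). Bcl2 was at 15.3, 14 and 13.4 CPM in the controls and at 10.8, 19.9 and 15.3 CPM in the libraries labelled Pkd1 KO, a log2 fold change of 0.11 (SE 0.83). The large SE of Bcl2 comes with 1 estimate of spread shared by all 4 groups, which includes libraries 6 and 7. These errors leave room for changes of either sign.

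Whether the effect of the Cep120 label differed from that of the Pkd1 label was tested directly. The difference passed for 0 of the 9 genes and for 0.0% of all genes (edgeR), with 2 of the 9 and 3436 of all genes at an unadjusted p under 0.05. It was 1.46 (SE 0.59) for Bcl2l11 (edgeR, Benjamini-Hochberg adjusted p = 0.203) and -1.05 (SE 0.41) for Cycs (adjusted p = 0.195). It was 2.43 (SE 1.14) for Bcl2 (adjusted p = 0.248) and 0.62 (SE 0.32) for Mcl1 (adjusted p = 0.292). limma-voom called 1 of the 9, Cycs (-1.16, adjusted p = 0.000139), when it called 4383 of 16876 genes. DESeq2 called 0 of the 9 and 715 of all genes. In edgeR the difference passed for Cycs without library 2 (-1.40, adjusted p = 0.000835), when 3140 of 16825 genes passed. With all 14 libraries, the Cycs difference was thus called by limma-voom and not by edgeR or DESeq2, and the Bcl2l11 difference by none of the 3.

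The 2 sets of controls were compared in the same way. None of the 9 genes passed (edgeR; 0 of the 9 and 825 of all genes were at an unadjusted p under 0.05, and DESeq2 and limma called 0 of the 9), against 0.124% of all genes. For 2 of the 9 the groups did not overlap, against 21.5% of all genes (11.5% above and 9.98% below). Cycs was higher in all 3 controls of the Cep120 line than in those of the Pkd1 line (log2 fold change 0.33), and Bcl2 was lower (-0.29). Neither difference passed (edgeR, Benjamini-Hochberg adjusted p = 0.998 for both).

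The 2 annotated transcripts of Bcl2 account for all of its count. Bcl2-201 is 7191 bases long and Bcl2-202 is 2841 bases long. The estimated share of Bcl2-201 was 60.9%, 47.2% and 46.1% in the Cep120-line controls and 52.8%, 82.9%, 79.4%, 84.7% and 87.0% in libraries 2, 4, 5, 6 and 7. Libraries 4 to 7 were above all controls of the line, and library 2 was within their range; libraries 4 and 5 had this high share at control levels of the gene as a whole. In the Pkd1 line the share was 56.9% to 69.2% in controls and 55.8% to 60.8% in libraries labelled Pkd1 KO. For Bcl2l11, the 5036-base transcript Bcl2l11-205 took 51.7% to 90.2% of the gene's count over all libraries. For Cycs, Cycs-202 took 95.6% to 99.4%.

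The genes whose levels moved most like those of each member were found among 9626 genes with a mean of at least 5 CPM, by the root mean square difference of centred log2 CPM over the 14 libraries. The libraries share their depth and cell mix, so this is a description. The genes closest to Cycs were Ndufc2 (0.050), a subunit of respiratory complex I, Atp5g1 (0.0601), a subunit of the ATP synthase, and Mrps14 (0.0613), a mitochondrial ribosomal protein. Ndufc2 was at 379, 316 and 332 CPM in the Cep120-line controls and at 313, 145, 147, 123 and 111 CPM in libraries 2, 4, 5, 6 and 7. As for Cycs, libraries 4 to 7 were low and library 2 was next to the controls.

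Bcl2 was closest to Robo2 (0.280), a receptor known for placing the ureteric bud, Pkdcc (0.309) and the cotransporter gene Slc12a2 (0.323). Robo2 was at 138 and 145 CPM in libraries 6 and 7 and at 11.3 to 26.9 CPM in the other 12. Bcl2l11 was closest to Zkscan3 (0.225), Nktr (0.232) and Ankrd10 (0.267). Zkscan3 was at 18.2, 15.4 and 15.5 CPM in the Cep120-line controls and at 26.0, 21.1, 24.4, 78.0 and 72.8 CPM in libraries 2, 4, 5, 6 and 7. Like Bcl2l11, it was above the controls in all 5 libraries and highest in libraries 6 and 7.

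**Figure D4:**
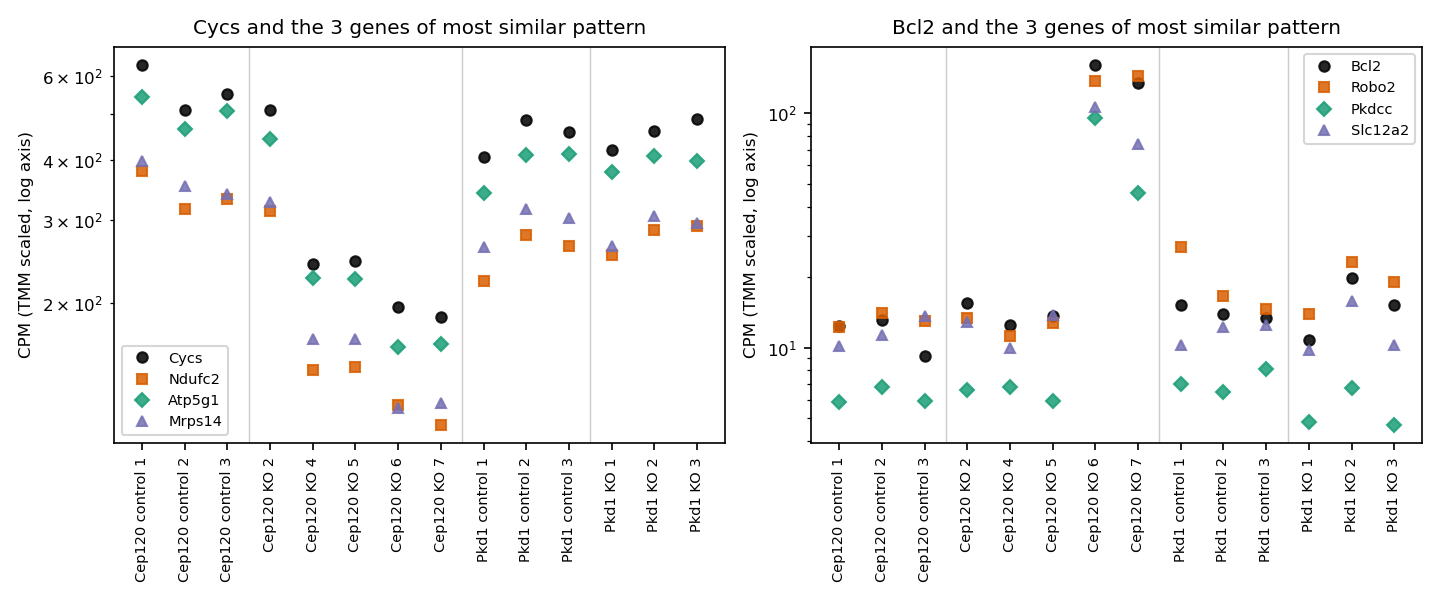
CPM (log axis, TMM scaled) in each of the 14 libraries of Cycs (left) and Bcl2 (right), each with the 3 genes of most similar pattern. Cycs and its 3 genes are low in Cep120 KO libraries 4 to 7, and Bcl2 and its 3 genes are high in libraries 6 and 7 only.

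Among the members themselves, Bid and Bcl2l1 were the closest pair (0.215), both lowest in libraries 6 and 7. The nearest genes outside the set were Plekhf2 (0.101), Hnrnpl (0.121) and Abcd3 (0.140) for Bcl2l1, and Fen1 (0.111), a nuclease of DNA replication, Ints14 (0.115) and Nup107 (0.116) for Bid. For Bak1 they were Chek1 (0.182), a checkpoint kinase, Cpne3 (0.183) and Gpr89 (0.185). For Mcl1 they were Htatsf1 (0.133), Wdr26 (0.153) and Cdc25a (0.155). Those of Bad were Ndufaf7 (0.0809), Cuta (0.0863) and Rnf34 (0.0915), and those of Bmf were Pkn2 (0.223), Btbd9 (0.245) and Txndc11 (0.253). A distance also depends on how much a member varied, so distances are not ranked between members.

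Other genes of the apoptosis pathway were tested beside the 9. Of 49 listed genes, 41 passed the filter on low counts, and in the Cep120 comparison 3 were called higher and 3 lower (edgeR), against 14.7% of all genes tested. The median log2 fold change of the 41 was 0.10, against 0.12 over all genes tested. Casp6 had a log2 fold change of -0.40 (edgeR, Benjamini-Hochberg adjusted p = 0.0573) and the apoptosome's initiator Casp9 of -0.11 (adjusted p = 0.694), and neither passed. Bax, the effector that works alongside Bak1, was between 114 and 140.0 CPM in the controls and between 129 and 188 CPM in the libraries labelled Cep120 KO, with a log2 fold change of 0.28 (adjusted p = 0.253). The transcription factor gene Trp53 was at -0.02 (adjusted p = 0.926), and Foxo3, which encodes a FOXO factor, was at 1.31 (SE 0.59, adjusted p = 0.135). On the TPM scale Bax was higher under the Cep120 KO label, at 284 ± 57.5 TPM (SD, n = 5) against 155 ± 12.6 TPM (SD, n = 3), without overlap. On the deposited log2 CPM Bax was called higher (0.65, limma, Benjamini-Hochberg adjusted p = 0.0238), when the median over all genes was 0.45. With a gene length offset Bax was at 0.69 (edgeR, adjusted p = 0.0595), when 0.083% of genes passed. The result for Bax thus depended on the scale used.

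The 3 genes called higher have roles at different levels of the pathway. Ddit3, which encodes the stress transcription factor CHOP, known to activate Bcl2l11, was at 2.41, 3.37 and 2.70 CPM in the controls and at 4.26, 13.1, 12.6, 16.7 and 11.4 CPM in libraries 2, 4, 5, 6 and 7. All 5 libraries were above the controls, with a log2 fold change of 2.04 (SE 0.45; edgeR, Benjamini-Hochberg adjusted p = 0.0290). Bbc3, which encodes the BH3-only protein PUMA, was at 0.646, 1.11 and 1.35 CPM in the controls and at 3.41, 2.03, 1.72, 15.7 and 8.31 CPM in the libraries labelled Cep120 KO. Again all 5 were above the controls, with libraries 6 and 7 highest as for Bcl2l11, and the log2 fold change was 2.59 (SE 0.72; adjusted p = 0.0344). Huwe1, which encodes a ubiquitin ligase that marks MCL1 for destruction, was at 29.7, 29.4 and 23.0 CPM in the controls and at 25.1, 79.7, 78.4, 92.8 and 79.2 CPM in libraries 2, 4, 5, 6 and 7. Library 2 was within the control range and the other 4 were above it, with a log2 fold change of 1.38 (SE 0.33; edgeR, adjusted p = 0.0299). With a gene length offset the log2 fold changes of Ddit3, Bbc3 and Huwe1 were 2.45, 2.70 and 0.65. None of them was called with the offset, when 0.083% of genes passed. Huwe1 was also not called without libraries 6 and 7 (1.16, edgeR, adjusted p = 0.0553).

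The 3 genes called lower were Bnip3l, Vdac1 and Birc5. Bnip3l, which encodes a mitophagy receptor related to BH3-only proteins, had a log2 fold change of -0.58 (SE 0.15; edgeR, Benjamini-Hochberg adjusted p = 0.0315). It was at 358 to 495 CPM in the controls and at 253 to 329 CPM in the libraries labelled Cep120 KO, without overlap. Vdac1, which encodes a channel of the mitochondrial outer membrane, was at 387 to 419 CPM in the controls and at 262 to 327 CPM in the libraries labelled Cep120 KO, also without overlap (-0.44, SE 0.13; adjusted p = 0.0436). Birc5, which encodes survivin, a protein of the IAP family that serves in mitosis, was at 210.3, 197 and 173 CPM in the controls and at 183, 135, 122, 107 and 99.6 CPM in libraries 2, 4, 5, 6 and 7. Library 2 overlapped the controls (-0.58, SE 0.18; adjusted p = 0.0469). On the TPM scale these 3 genes were not lower in this way. Bnip3l was at 527 ± 91.95 TPM (SD, n = 5) under the Cep120 KO label and at 489 ± 62.0 TPM (SD, n = 3) in the controls, and Vdac1 was at 224 ± 44.3 TPM against 191 ± 1.12 TPM, the opposite order of means. Birc5 was at 201 ± 15.0 TPM against 202 ± 11.2 TPM. With a gene length offset the log2 fold changes were -0.18, -0.53 and -0.26, and none was called, when 0.083% of genes passed. The fall was smaller with the offset for Bnip3l and Birc5, but not for Vdac1. The lower level of Bnip3l and Birc5 thus depended on the scale used. For Vdac1 the TPM means and the offset fit gave opposite directions. The calls of Vdac1 and Birc5 were lost on leaving out any single library other than library 2. Those of the other 4 genes were lost on leaving out library 6, library 7 or any control of the line. The Bnip3l call was also lost without library 5 (edgeR, Benjamini-Hochberg adjusted p = 0.0524). The Bbc3 call was also lost without any 1 Pkd1-line control (adjusted p = 0.0507 to 0.0514) or without Pkd1 KO library 3 (adjusted p = 0.05004). With limma-voom Bbc3 was at 1.00 (adjusted p = 0.114) and was not called. On the deposited log2 CPM, Bnip3l (-0.18), Vdac1 (-0.06) and Birc5 (-0.22) were not called. Without libraries 6 and 7, Bbc3 was at 1.19 (adjusted p = 0.138). In the Pkd1 comparison 0 of the 41 genes passed (edgeR, DESeq2 and limma; 1 at an unadjusted p under 0.05). That gene was Ddit3, named here after its value was seen. It was at 0.892 to 1.83 CPM in the Pkd1-line controls and at 1.94 to 5.12 CPM in the libraries labelled Pkd1 KO, without overlap, with a log2 fold change of 1.15 (SE 0.48; edgeR, unadjusted p = 0.0312, Benjamini-Hochberg adjusted p = 1).

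**Figure D5:**
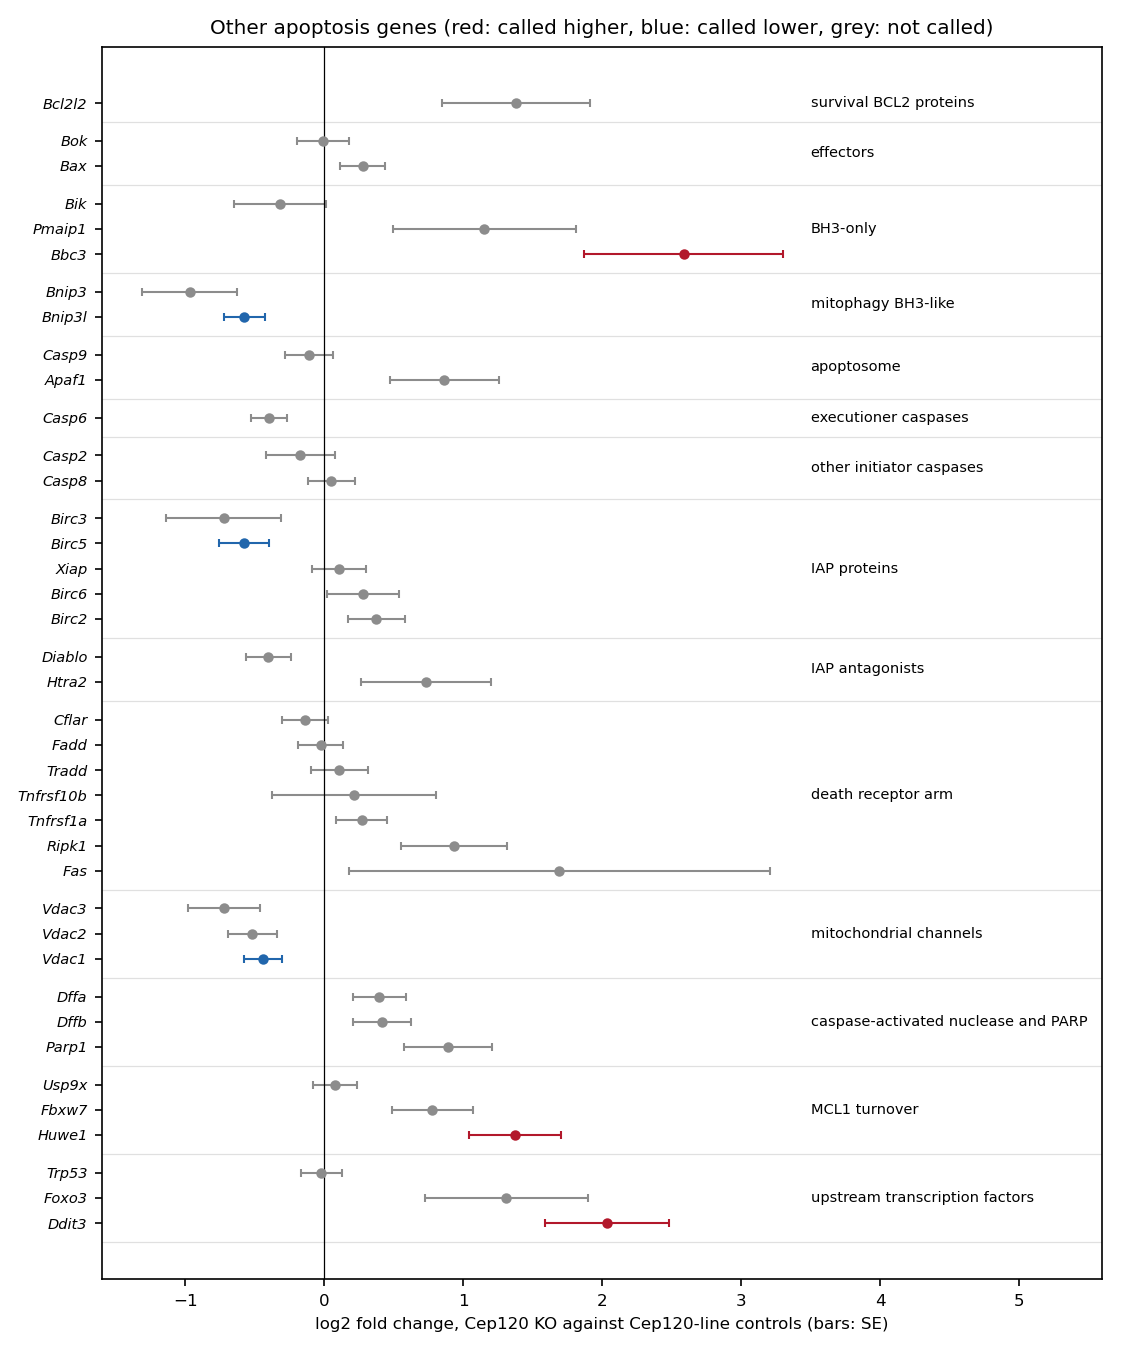
Log2 fold change (horizontal axis) with its SE of the tested apoptosis genes outside the 9 that are reported here, libraries labelled Cep120 KO against controls of their line, ordered by role. The 3 genes called higher (Ddit3, Bbc3 and Huwe1) and the 3 called lower (Bnip3l, Vdac1 and Birc5, whose means were not lower in this way on the TPM scale) are coloured, and the genes that were not called are grey.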

How the data were processed

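RNA-seq libraries of sorted cells were deposited as tables for the whole series. The authors' gene table holds estimated counts, 88.4% to 91.6% of them whole, which were rounded; the authors' TPM values and log2 CPM values were used as deposited. Per the submitters' processing notes, DRAGEN and the mm9 build were used; the annotation is not given in the sources used here, and mm9 coordinates were not used. Gene positions are from GENCODE M21 on GRCm38, promoters from RefSeq GRCm38.p6. Of 55774 lines, 287 repeats were dropped.

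Counts were TMM-scaled and tested with edgeR 4.0.16 (quasi-likelihood; filterByExpr, minimum count 10; 4 group means over 14 libraries; Benjamini-Hochberg adjustment over 16876 genes; call at an adjusted p under 0.05). DESeq2 1.42.0, limma 3.58.1 on the log2 values, limma-voom, other library choices and a length offset were alternatives. The fits were tested on simulated data. Members and lists were chosen with earlier results of these data known. Named pathway genes were those called, plus Bax and Casp9 (another gene of this rule is not reported here); the other pathway and neighbour genes named were chosen after their values were seen or by smallest distance. The Cep120 KO group has 5 libraries, the other groups 3 each.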

Additional observations from a re-analysis of the deposited data

Results flagged for a closer look

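Cycs was flagged because 1 of the 5 libraries labelled Cep120 KO lay far from the others. Library 2 was at 508.7 CPM, and its gap to the next library was 0.819 of the whole range of the group, above Dixon's 95% critical value of 0.71 for 5 libraries.

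Huwe1 was flagged in the same group at the other end. Library 2 was at 25.1 CPM, the lowest of the 5, with a gap of 0.788 of the range.

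Chance flags about 1 in 20 groups, and 18 groups of values were tested, over genes that share the same libraries.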

How the results depend on the processing

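In the Cep120 comparison, 2 of the 9 genes, 6 of the 41 pathway genes and 2475 of all genes were called. With DESeq2 these counts were 4, 13 and 4199, with limma-voom 4, 22 and 6665, in a fit of the compared groups alone 0, 0 and 0, with library 2 as the only library labelled Cep120 KO 0, 0 and 5, and with a gene length offset 0, 0 and 14. Summing libraries 4 and 5 gave 3 pathway genes and 1400 of all genes, and omitting the low-count filter gave 3 pathway genes. Without libraries 6 and 7, 1 of the 9 and 1028 of all genes were called. Leaving out 1 library at a time gave 0 to 5 of the 9, 0 to 16 pathway genes and 2 to 5719 of all genes; the highest counts came without library 2, and the counts of the 9 were 0 without library 6, library 7 or any control of the line. Beyond Bcl2l11 and Cycs, the calls among the 9 were Bcl2 and Bad with DESeq2, Mcl1 and Bad with limma-voom, Mcl1 on the deposited log2 CPM, Bcl2 with no filter or with libraries 4 and 5 left out (singly or together) or summed, and Bcl2, Bad and Mcl1 without library 2. Cycs was not called with libraries 4 and 5 left out, singly or together, or summed. The cause of these differences was not tested.

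For all genes, the Pkd1 comparison gave 3 calls with DESeq2, 1 with limma-voom and 3 in a fit of the groups alone, against 0. For the difference of the effects, limma-voom called 1 of the 9 and 4383 of all genes, DESeq2 715 of all genes, no low-count filter 1, limma on log2 CPM 1, the fit without libraries 6 and 7 called 4, without libraries 4 and 5 called 1 and with library 2 alone 5; leaving out 1 library gave 0 to 1 of the 9 and 0 to 3140 of all genes. For the controls, against 21, DESeq2 called 84, limma-voom 131, the fit of those groups alone 139, without libraries 6 and 7 49 and with library 2 alone 169; leaving out 1 library gave 12 to 29.

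Some log2 fold changes that were not called changed sign. On the deposited log2 CPM, Bid was at 0.045, Bad at 0.057, Bcl2l1 at 0.078, Bak1 at 0.014 and Casp9 at 0.28. Without libraries 6 and 7, Bid was at 0.043, Bcl2l1 at 0.22 and Bak1 at 0.028. With library 2 alone, Bid was at 0.066, Bmf at -0.50, Bcl2l1 at 0.43, Bak1 at 0.57 and the otherwise called Huwe1 at -0.11. With limma-voom Bcl2l1 was at 0.094, and with the length offset Bmf at -0.16. In the Pkd1 comparison Bak1 was at -0.016 and Cycs at -0.018 on log2 CPM, and Cycs at -0.021 with limma-voom. Leaving out 1 library there gave -0.099 to 0.013 for Bad, -0.12 to 0.31 for Bcl2, -0.27 to 0.082 for Mcl1, -0.11 to 0.15 for Bak1 and -0.044 to 0.075 for Cycs. RLE size factors changed no call among the 9. Replicate numbers did not pair the Pkd1 line (correlations of same-numbered libraries -0.045, -0.029 and -0.124), and a fit with the replicate block called 0 of the 9, 0 pathway genes and 0 of all genes. No paired analysis was possible for the Cep120 line because its groups share only the number 2. All 9 genes passed the filter on low counts at a depth of at least 11347628 reads; groups of 3 and 5 libraries limit the precision.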
